A study of Rattus norvegicus with 38 samples.

Results

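Peaks of histone H3 lysine 27 acetylation (H3K27ac) at 4 regulators of the NF-kB and STAT3 pathways, Nfkbia, Bcl3, Stat3 and Bcl6, are described here in the substantia nigra (SN) and motor cortex of rats given rotenone or vehicle. The peaks were selected on measured values: a peak was taken where the study's 4 tables of differentially acetylated peaks (rotenone against vehicle) name 1 of these genes, and the row was matched by position to the pooled peak list of its region. This gave 13 of the 151509 listed peaks, 5 of them from the SN list and 8 from the motor cortex list. All 13 came from the tables of hyperacetylated peaks, in which H3K27ac was higher after rotenone, and none came from a table of hypoacetylated peaks. This direction comes from the contrast that chose the peaks and is not a result. Bcl6 had no row among the motor cortex peaks and is absent there.

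The animals were male Lewis rats aged 8 to 10 months, 5 injected intraperitoneally with rotenone at 2.8 mg/kg and 4 with vehicle. Rotenone blocks complex I of the mitochondrial respiratory chain and is given to rats to model Parkinson's disease. The labels give once-daily dosing for 21 days and dissection 24 h after the last injection, while the methods describe daily dosing until each rat reached a behavioural endpoint. The treatment tag of the control samples reads PBS and the protocol text names Miglyol. The methods name DMSO and Miglyol as the carrier of rotenone. The control treatment is called vehicle here. SN and motor cortex were taken from the same 9 rats, giving 18 tissue samples sequenced in 34 runs, with 4 further runs of input DNA that all carry the cortex label. The SN samples are labelled ventral midbrain, and each sample holds nuclei of all cell types of the dissected piece.

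NF-kB and STAT3 are transcription factors that carry signals from cytokine receptors to the nucleus, in glia as in immune cells. NF-kB dimers are held in the cytoplasm by inhibitors of the IkB family until these are degraded, and several of the inhibitors are themselves NF-kB targets, which closes a negative feedback loop. STAT3 is phosphorylated by Janus kinases at activated cytokine receptors, enters the nucleus, and among other targets induces Socs3, an inhibitor of the same kinases. H3K27ac marks active promoters and enhancers, so a peak shows where the mark lies and not how much of a gene is transcribed.

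The lists hold 70744 SN peaks and 80765 motor cortex peaks, with median widths of 994 and 1245 bp, and cover 105 and 146 Mb. Each list pools all rats of a region, and it carries positions without read counts or scores. No value per rat, no depth and no error between rats could therefore be computed from them, and no difference in acetylation between rotenone and vehicle is given. The study describes deeper sequencing of the motor cortex than of the SN, which bears on every comparison of rows and widths between the regions. Its part in these comparisons was not tested. The deposited SN list is also longer than the set of SN peaks that the study states, so SN shares, width percentiles and overlap shares rest on a list that holds peaks outside that set. An SN peak that is in no table may therefore not have been tested by the study. The tissue labels could not be checked against marker genes, since the lists hold no gene levels. Of all listed SN peaks, 1.24% are in the hyperacetylated table and 1.72% in the hypoacetylated table. In the motor cortex, these shares are 4.97% and 6.45%. Since the 4 genes were chosen by these tables, nothing is read from their number of rows beside these shares.

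Promoter sequences of 2 of the 4 genes are printed because they hold a match to the kappa B consensus, the sequence bound by NF-kB. Each runs from 250 bases before to 50 bases after the gene's start in RefSeq (GRCr8), 5′ to 3′ on the gene's strand, with the match in capitals.
Nfkbia promoter: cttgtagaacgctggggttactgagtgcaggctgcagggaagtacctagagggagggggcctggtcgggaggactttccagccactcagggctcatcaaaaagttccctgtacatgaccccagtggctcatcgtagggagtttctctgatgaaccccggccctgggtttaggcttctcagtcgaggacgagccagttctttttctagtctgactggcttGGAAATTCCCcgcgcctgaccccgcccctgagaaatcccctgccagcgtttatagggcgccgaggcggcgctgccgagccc
Bcl3 promoter: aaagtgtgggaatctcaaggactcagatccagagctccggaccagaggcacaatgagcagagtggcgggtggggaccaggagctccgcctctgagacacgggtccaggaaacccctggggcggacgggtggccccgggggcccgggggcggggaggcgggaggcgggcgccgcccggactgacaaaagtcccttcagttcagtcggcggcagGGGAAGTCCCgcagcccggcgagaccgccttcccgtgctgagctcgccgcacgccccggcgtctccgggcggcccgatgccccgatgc
In Nfkbia, the match GGAAATTCCC lay at bases -31 to -22 from the start, and in Bcl3 the match GGGAAGTCCC lay at bases -38 to -29. These are the letters of the gene's strand, and the consensus itself was met on the opposite strand. The Stat3 and Bcl6 windows held no such match, and 4.18% of 33469 RefSeq rat promoters of the same length held at least 1. The STAT site TTCNNNGAA, which reads the same on both strands, was in none of the 4 windows and in 8.87% of all promoters. The looser kappa B core, which fixes only the outer G and C bases of the consensus and was searched on both strands, matched 5 times in Bcl3, 3 times in Bcl6, 2 times in Nfkbia and not in Stat3, while 47.3% of all promoters held it. With no STAT site in the 4 windows, no match to the kappa B consensus could overlap such a site.

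The share of G and C differed among the 4 windows, from 59.7% in Nfkbia and 62.3% in Stat3 to 71.7% in Bcl3 and 72.3% in Bcl6, against a median of 51.7% over all promoters. Base composition alone changes how often a motif made of runs of G and C is met, and the shares above were not matched for it. A match describes letters and not a bound site. The windows were not placed in mRatBN7.2, the build of the peaks, so that it was not checked whether they lie under the peaks described next.

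Nfkbia encodes IkB alpha, the inhibitor that keeps NF-kB dimers in the cytoplasm. It had 1 SN row, a peak annotated as distal intergenic at chr6:72834725-72839214 (mRatBN7.2, as all positions of peaks below). This peak is 4490 bp wide, wider than 95.5% of all listed SN peaks and than 79.2% of the SN peaks in the hyperacetylated table. The motor cortex list holds a peak inside the same stretch, chr6:72835367-72839125, which is 3759 bp wide and is also in the hyperacetylated table under Nfkbia. All of the cortex peak lay under the SN peak, and 83.7% of the SN peak lay under the cortex peak.

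The other Nfkbia rows of the motor cortex were promoter peaks, 1 of 5822 bp at chr6:72857373-72863194 and 1 of 1041 bp at chr6:72864540-72865580. The first is wider than 96.3% of the cortex peaks and the second than 41.6%, so that the pair spans a broad and an ordinary peak 1345 bp apart. The broad promoter peak lay 18247 bp from the distal peak. In the SN the promoter was acetylated as well: a peak of 6627 bp, wider than 98.1% of SN peaks, covered 98.6% of the broad cortex promoter peak, and a peak of 891 bp covered 63.4% of the narrower one. Neither of these SN promoter peaks is in an SN table, and whether they were in the set that the study tested is not known. At Nfkbia, then, the SN row was the distal peak alone, whereas the motor cortex rows were the distal and both promoter peaks, at places where both lists hold a peak. A row in 1 region and none in the other does not show that the response differed between regions, and that difference was not tested.

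Bcl3 encodes a nuclear member of the IkB family, which binds NF-kB dimers on DNA and can activate or repress their targets. Its SN rows were an intronic peak of 2759 bp at chr1:79478544-79481302 and a promoter peak of 3289 bp at chr1:79484391-79487679, 3088 bp apart. They are wider than 88.4% and 91.8% of all SN peaks, but near the middle of the hyperacetylated SN table, where 57.4% and 65.7% of peaks are narrower. The median width of that table is 2482.5 bp, against 994 bp over all listed SN peaks. In the motor cortex the same medians were 1634.0 and 1245 bp. The longer SN list holds peaks outside the study's set, and its part in this difference was not tested.

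In the motor cortex, the Bcl3 rows were an intronic peak of 1064 bp at chr1:79479046-79480109 and promoter peaks of 741 bp at chr1:79485224-79485964 and of 1200 bp at chr1:79486420-79487619. All 3 are narrower than the cortex median, with 42.6%, 27.1% and 48.2% of cortex peaks narrower still. The single SN promoter peak covered both cortex promoter peaks and the 455 bp between them. It began 833 bp before the first and ended 60 bp after the second, so that most of its extra length lay on 1 side. Only 38.6% of the SN intronic peak and 59.0% of the SN promoter peak lay under a cortex peak. Among SN peaks with any overlap, 3.3% and 9.4% had a smaller share under the other list, and the median share was 97.9%.

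Stat3 encodes the transcription factor itself. Its SN row was a promoter peak of 2843 bp at chr10:85861508-85864350, wider than 89.1% of SN peaks and than 59.0% of those in the hyperacetylated table. The motor cortex list breaks this stretch into a peak of 1464 bp at chr10:85861695-85863158, in the hyperacetylated table under Stat3, and a peak of 779 bp at chr10:85863272-85864050, which is in no table. Both cortex peaks lay wholly inside the SN peak and together covered 78.9% of it.

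The second motor cortex row of Stat3 was a promoter peak of 1893 bp at chr10:85858408-85860300, 1394 bp away on the lower side. Here the SN list was the more broken, with peaks of 1158 and 335 bp that covered 78.6% of the cortex peak and are in no table. Stat3 thus had acetylated promoter sequence in both lists at both places, with rows at 1 place in the SN and at both in the motor cortex.

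Bcl6 encodes a zinc finger repressor that recruits corepressors and whose binding sites resemble those of STAT factors. Its only row was an SN promoter peak of 12435 bp at chr11:76851117-76863551, the widest of the 13 peaks and wider than 99.6% of all SN peaks. It ranked 282 by width among the 70744 SN peaks. All of it lay under a motor cortex peak of 14513 bp at chr11:76850615-76865127, wider than 99.7% of cortex peaks, which is in no table. The absence of Bcl6 from the motor cortex tables was therefore not an absence of H3K27ac, since the wider peak at this promoter was the one in the motor cortex.

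**Figure D1:**
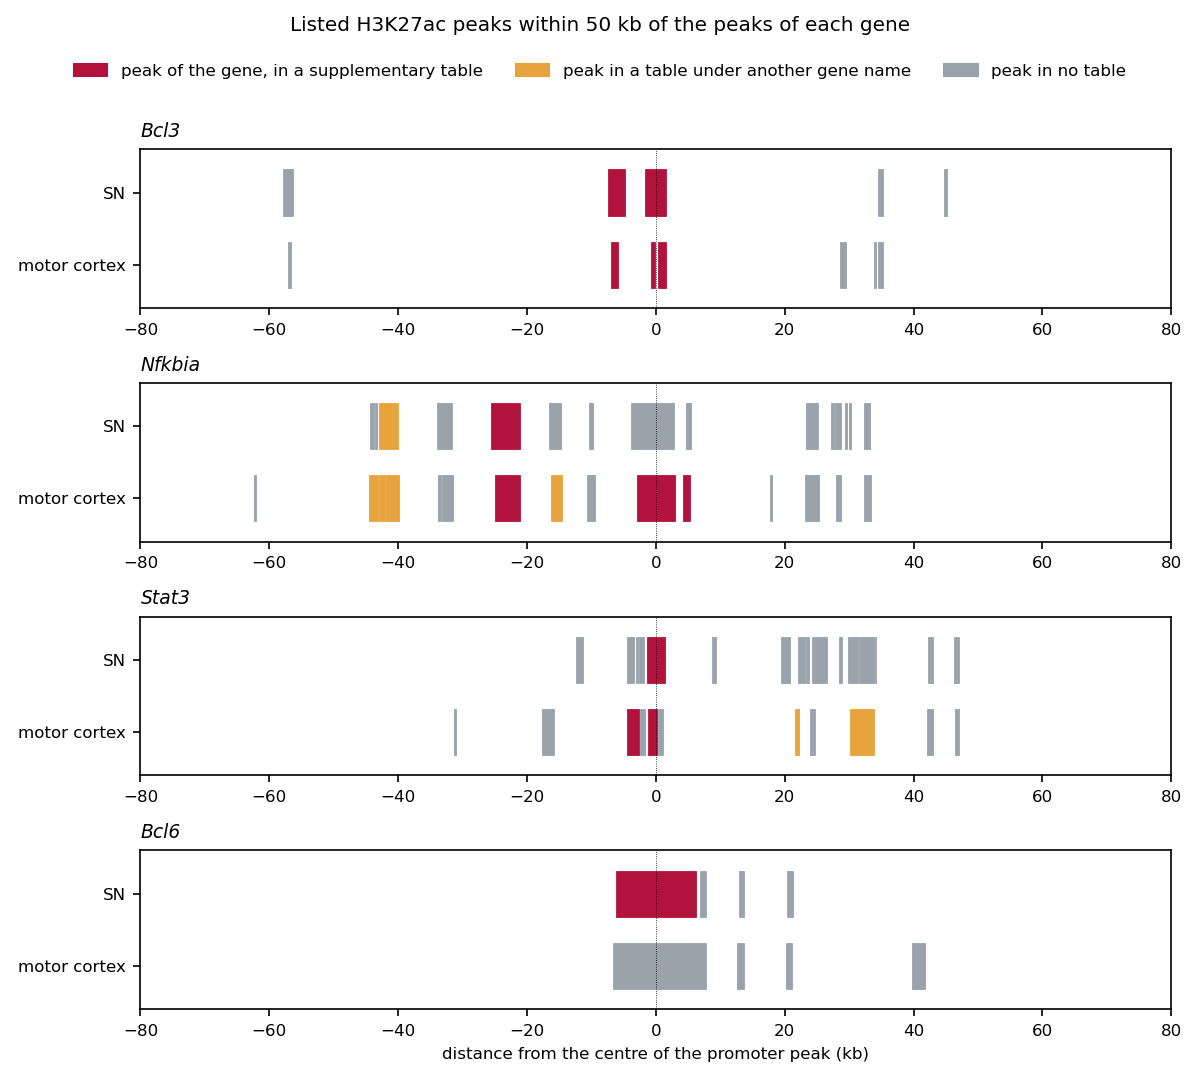
Listed H3K27ac peaks of the SN and motor cortex (rows) within 50 kb of the peaks of each gene, drawn to scale as distance in kb from the centre of the promoter peak. Red boxes are peaks of the gene in a hyperacetylated table, orange boxes are in a table under another gene name (the cortex box 15.4 kb to the left of the Nfkbia promoter peak carries the misread name Nfkb1a), grey boxes are in no table, and red boxes of 1 region face a box in the other region in every case.

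The map of peaks by distance shows that each of the 13 peaks faced a peak of the other region. All 5 SN peaks overlapped a cortex peak by at least 1 bp, where 65.3% of all SN peaks did, and all 8 cortex peaks overlapped an SN peak, where 55.1% of all cortex peaks did. Wide peaks have more sequence in which to meet another, and no test was made of 13 chosen peaks. More than 1 cortex peak lay under 2 of the 5 SN peaks, at the Bcl3 and Stat3 promoters (5.74% of all SN peaks), and more than 1 SN peak lay under 1 of the 8 cortex peaks, at Stat3 (6.09% of all cortex peaks). In 4 of the 5 SN peaks the overlapped cortex peak was itself in the hyperacetylated table, Bcl6 being the exception. Over the whole table of hyperacetylated SN peaks that share was 27.3%, or 239 of 874. In the other direction, 5 of 8 cortex peaks lay over a hyperacetylated SN peak, against 6.33%, or 254 of 4015, over the whole cortex table. Both tables were used to choose the 4 genes, so that these counts describe the selection.

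**Figure D2:**
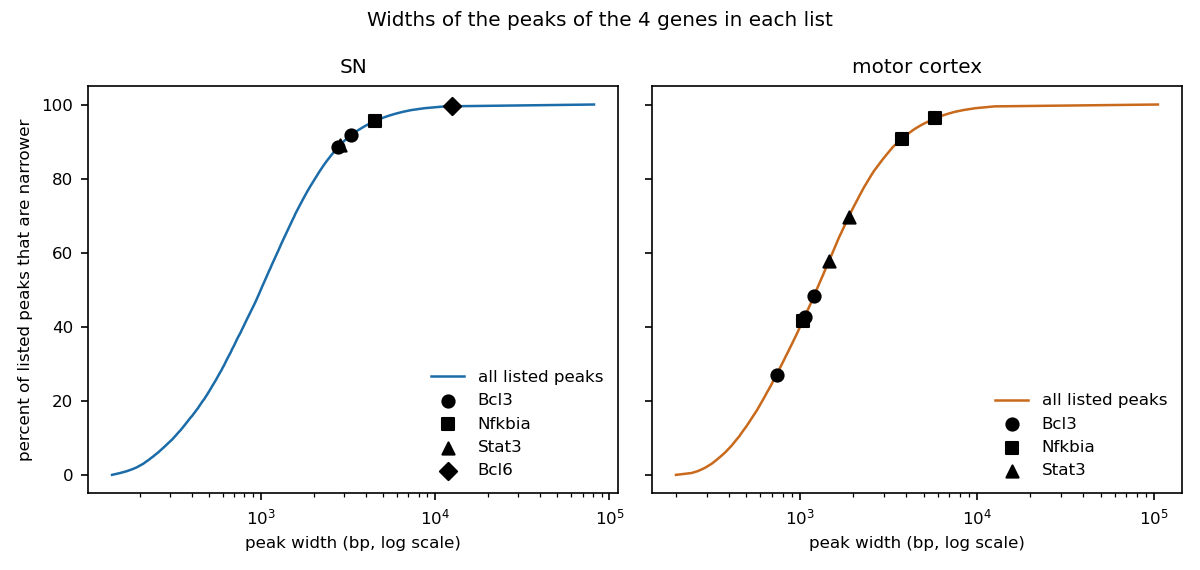
Percent of listed peaks that are narrower (vertical axis) against peak width in bp (horizontal axis, log scale) in the SN and motor cortex, with a line for all listed peaks and a symbol for each of the 13 peaks by gene. The 5 SN peaks lie between 88.4 and 99.6%, and the 8 cortex peaks spread from 27.1 to 96.3%.

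The plot of width against rank places the 13 peaks within the 2 lists. The 5 SN peaks lay at a median of 91.8% of the SN list, and the narrowest of them stood at 88.4%. The 8 cortex peaks lay at a median of 53.0% of the cortex list, with Bcl3 at the lower end and Nfkbia at both ends. In the hyperacetylated tables the median width was 2482.5 bp in the SN and 1634.0 bp in the motor cortex. Within its own table an SN peak of the 4 genes stood between 57.4%, at the Bcl3 intron, and 97.3%, at Bcl6, while a cortex peak stood between 15.8%, at the Bcl3 promoter, and 94.5%, at the Nfkbia promoter. The input runs among the samples all carry the cortex label, which inputs served the SN call is not given in the sources used here, and the motor cortex was sequenced more deeply. The part of input and depth in the widths was not tested. In such bulk tissue, fewer cells with the mark and less of the mark per cell cannot be told apart.

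**Figure D3:**
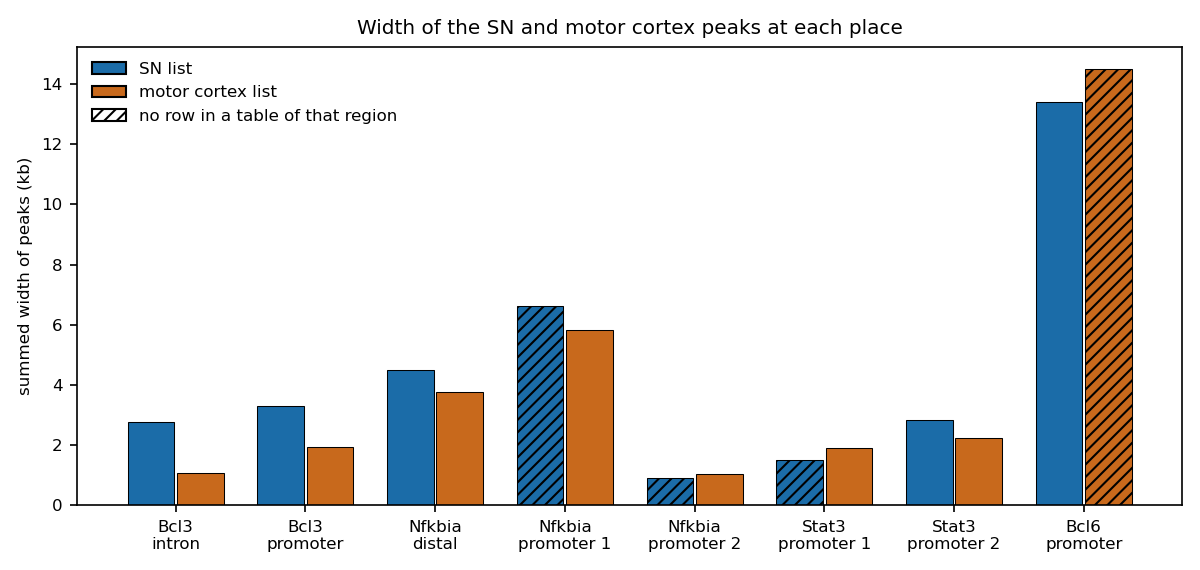
Summed width in kb of the SN and motor cortex peaks at each of the 8 places that hold a peak of the 4 genes, with hatched bars where the region has no table row at that place. SN bars are taller at 5 places and cortex bars at 3, and the tallest pair is the Bcl6 promoter.

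Joining overlapping SN and cortex peaks gave 8 places, of which 4 had a row in both regions, 3 in the motor cortex only and 1 in the SN only. Each place was taken because it holds a row, so this split describes the selection. The same split over all places is not given here, and nothing is read from it. The bars of summed width show that the SN peaks were wider at 5 places and the cortex peaks at 3. Over the 39925 such places of the 2 lists, 41.5% had the wider SN peaks and the median ratio of SN to cortex width was 0.94 (interquartile range 0.70 to 1.15). Where the SN peak was in the hyperacetylated table, 57.6% of 768 places had the wider SN peaks, with a median ratio of 1.04.

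The 2 places of Bcl3 stood at the upper end of these ratios. Its intron had a ratio of 2.59, above 97.7% of all places and above 95.4% of those with a hyperacetylated SN peak. At its promoter the ratio was 1.69, above 92.2% and 89.1%. The other ratios were nearer to 1. The ratio was 1.27 at the Stat3 promoter place with an SN row, 1.19 at the distal Nfkbia peak and 1.14 at the broad Nfkbia promoter peak. It was 0.92 at Bcl6, 0.86 at the narrower Nfkbia promoter peak and 0.79 at the other Stat3 place. The 3 places with wider cortex peaks thus included the Bcl6 promoter, which had its row in the SN. Of the sequence under either list at a place, the share under both ran from 38.6% at the Bcl3 intron to 91.5% at Bcl6. This comparison of widths was added after the peaks had been seen, and without values per rat it has no error and no test.

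**Figure D4:**
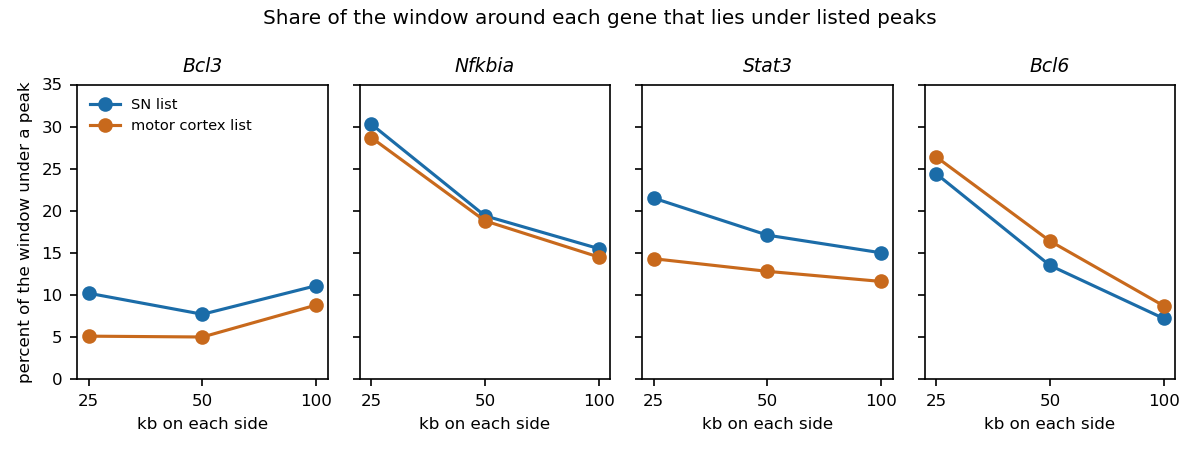
Percent of the sequence around each gene that lies under a listed peak (vertical axis) for windows reaching 25, 50 and 100 kb beyond the gene's peaks on each side (horizontal axis), for the SN and motor cortex lists. At 50 kb the SN and cortex shares are 19.4 and 18.8% around Nfkbia, 17.1 and 12.8% around Stat3, 13.5 and 16.4% around Bcl6, and 7.7 and 5.0% around Bcl3.

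The surroundings of the 4 genes, taken as all peaks within 50 kb of their rows, held 40 SN and 37 cortex peaks. These were 15 SN and 15 cortex peaks around Nfkbia, 16 and 11 around Stat3, 5 and 7 around Bcl3, and 4 and 4 around Bcl6. The windows differ in length, so the number within 50 kb of each single peak is the value to set against other listed peaks, for which the median was 10 in the SN (interquartile range 5 to 16) and 8 in the motor cortex (5 to 12). By that count the SN peak of Stat3 had 16, above 74.6% of SN peaks, and that of Nfkbia had 12, above 57.8%. The SN peaks of Bcl3 had 5 and 4, above 20.1% and 14.4%, and that of Bcl6 had 4, above 14.4%. Among cortex peaks, those of Nfkbia had 14, above 81.0%, those of Stat3 had 11, above 65.1%, and those of Bcl3 had 6 or 7, above 30.0% and 37.5%. In number of peaks, only the Nfkbia cortex peaks and the SN peaks at the Bcl3 and Bcl6 promoters lay outside their list's interquartile range. Apart from the rows of the 4 genes, 1 of the other 35 SN peaks and 6 of the other 29 cortex peaks were in a hyperacetylated table, and none was in a hypoacetylated one. The 6 cortex peaks include adjacent peaks named for the same other gene and a peak of uncertain name that may belong to Nfkbia. Their share was not tested against other windows. Over the whole lists 1.24% of SN and 4.97% of cortex peaks are hyperacetylated, and 1.72% and 6.45% are hypoacetylated, so that few or no hypoacetylated peaks among so small a number is near the background.

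The plot of covered sequence by window size separates the genes in another way. Around Nfkbia, 19.4% of a window of 130.9 kb lay under SN peaks, rising to 30.3% within 25 kb. The SN share was also larger within 25 kb around the other genes, at 10.2% for Bcl3, 21.5% for Stat3 and 24.4% for Bcl6. Around Bcl3, 7.7% of 109.1 kb lay under SN peaks and 5.0% under cortex peaks. Within 50 kb of its single SN peaks, 8.17% and 6.92% were covered. The median over all listed SN peaks was 13.2% (interquartile range 6 to 25.1%). For its cortex peaks the share was 4.85 to 5.23%, below the interquartile range of the cortex list (6.2 to 24.2%, median 13%). Bcl6 had few peaks but covered shares of 13.5% under SN peaks and 16.4% under cortex peaks, most of it from the 1 broad promoter peak. The next SN peaks beyond its window lay 256 kb away on the lower side and 378 kb on the higher side, so that the same 4 SN peaks were counted within 25, 50 and 100 kb. At Bcl3 the limit of 50 kb fell close to a peak, since the nearest SN peak left out lay 50.6 kb away and the farthest one counted on that side 43.1 kb.

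The 2 lists also shared different amounts of the acetylated sequence around each gene. Of the sequence under a peak of either region, 80.2% was under both at Bcl6 and 76.2% at Nfkbia. The share was 44.4% at Stat3 and 43.6% at Bcl3. At Stat3, 10 of the 16 SN peaks overlapped a cortex peak, against 65.3% of all SN peaks. The other 6, between 148 and 1452 bp wide, held only part of the sequence that was not shared there. At Bcl3 the wider SN peaks made most of the difference.

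Both lists leave out part of the running numbers in their peak names, and the names follow position in all 70721 SN and 80743 cortex pairs of neighbours. In the SN, 47.6% of the numbers up to 148637 are present, and in the motor cortex 58.2% of those up to 138713. The filter that left these gaps is not given in the sources used here. Around the 4 genes, 75% of the 40 SN peaks overlapped a cortex peak, against 65.3% of all SN peaks. Of the 37 cortex peaks there, 81.1% overlapped an SN peak, against 55.1% of all cortex peaks. These shares include the 13 chosen peaks and were not tested. For 6 of the 10 SN peaks without a cortex overlap, cortex numbers were missing between the cortex peaks on both sides. In the whole list this held for 78.7% of 24484 such SN peaks. All 7 of the 37 cortex peaks without an SN overlap had SN numbers missing in the same way, against 84.1% of 36265. The SN peaks with no cortex overlap and no missing cortex number were 549, 1452 and 148 bp wide at Stat3 and 424 bp wide at Bcl3. Whether a peak with missing numbers beside it once had a counterpart was not tested. The 13 peaks of the 4 genes all have an overlap in the other list and are not among these peaks. SN numbers are also missing beside the SN peaks that face the Nfkbia and Bcl6 promoter peaks of the motor cortex. A peak left out there could change the shares covered and the width ratios, which was not tested.

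Rows of other genes lay in 2 of the windows. Psma6, a proteasome subunit that RefSeq places next to Nfkbia, had 1 hyperacetylated SN peak of 2952 bp at chr6:72817336-72820287 and 3 hyperacetylated cortex peaks of 1375, 837 and 2010 bp over the same stretch, with centres between 40.9 and 43.8 kb from the Nfkbia promoter peak. Cavin1, which encodes a coat protein of caveolae and is the neighbour of Stat3 on the side away from Stat5a, had 2 hyperacetylated cortex peaks, 1 of 630 bp in an exon and 1 of 3673 bp at its promoter (chr10:85893069-85896741). The SN peaks over the Cavin1 promoter peak, of 1560 and 2279 bp, are in no table. Gene names are those of the nearest annotated gene in the study's tables, and a peak named for 1 gene can lie near another.

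One cortex peak near Nfkbia has an uncertain name. This hyperacetylated distal peak of 1649 bp at chr6:72844086-72845734 carries the name Nfkb1a in the text of the tables, which was read from page images and confuses some letters. Counted as Nfkbia, it would bring the 13 peaks to 14. It lay between the distal and promoter peaks, and an SN peak of 1878 bp, in no table, overlapped it by 1547 bp.

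A list of 40 other genes of these pathways was searched in the same tables. Hyperacetylated peaks were named for 9 of the 40 among SN rows and for 13 among cortex rows. Hypoacetylated peaks were named for 1 gene among SN rows and for 9 among cortex rows, and 22 of the 40 had no row at all. These tables name 715 and 2449 genes as hyperacetylated and 830 and 2775 as hypoacetylated in the SN and motor cortex. Of 23154 RefSeq protein-coding symbols, 2.95% and 10.1% are named as hyperacetylated and 3.36% and 11.1% as hypoacetylated, in the same order of regions. The share of these symbols with no row in any of the tables is not given here. Nothing is therefore read from the 22 genes without a row. The list was made with earlier results of these data known and was not matched to other genes for length or number of peaks, so its counts are descriptions. Unread or misread names make the counts of genes with a row lower bounds and the count of genes with no row an upper bound.

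On the NF-kB side, Nfkb1, which encodes the precursor of a DNA-binding subunit, had a distal SN peak of 1821 bp at chr2:224171848-224173668. Nfkbiz, another nuclear IkB protein, had an SN peak of 2757 bp at chr11:44798749-44801505. Both genes had 1 hyperacetylated and 3 hypoacetylated rows in the motor cortex. Cyld, a deubiquitinase that restrains NF-kB signalling, was the 1 gene of the list with a hypoacetylated SN peak, of 1605 bp at chr19:18287400-18289004, and it had 2 hyperacetylated rows in the motor cortex. The rows of these genes thus went in both directions. For the other subunit genes Nfkb2, Rel, Rela and Relb no row was found.

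On the STAT3 side, Socs3 had 3 hyperacetylated SN rows, and its promoter peak of 8780 bp at chr10:103189548-103198327 was wider than 99.0% of SN peaks. Of this promoter peak 52.5% lay under cortex peaks, 1 of them hyperacetylated, and the next Socs3 peak of 2210 bp overlapped none. In the motor cortex Socs3 had 2 hyperacetylated rows. Jak1, a kinase that phosphorylates STAT3, had a distal SN peak of 2953 bp at chr5:115913534-115916486, hyperacetylated, and 1 hypoacetylated row in the motor cortex. Ptpn11, a phosphatase in cytokine receptor signalling, had a hyperacetylated exonic SN peak of 6162 bp, with 4 hyperacetylated rows and 1 hypoacetylated row in the motor cortex.

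Mcl1, Junb and Pim1 are known targets of STAT3. Mcl1, an inhibitor of apoptosis, had 3 SN rows, of which the widest was 12657 bp at chr2:183224427-183237083, wider than 99.6% of SN peaks and over 2 hyperacetylated cortex peaks. Junb, a subunit of the transcription factor AP-1, had a promoter peak of 7358 bp, and Pim1, a serine/threonine kinase, a distal peak of 1099 bp. In the motor cortex Mcl1 had 2 hyperacetylated rows, Pim1 had 1 and Junb had none. No row was found for Stat2, Stat5a, Stat6, Jak2 or Tyk2, while Stat5b and Stat4 had a row in the motor cortex only, hyperacetylated and hypoacetylated respectively.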

How the data were processed

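H3K27ac ChIP-seq was performed by the authors on SN and motor cortex. Per the labels and methods, reads were trimmed with Trim Galore 0.6.7, checked with FastQC 0.11.9, aligned to mRatBN7.2 with Bowtie2 2.4.4 and freed of duplicates with Picard 2.6.0. Replicates of a region were combined, and peaks were called with MACS2 2.2.7.1 against pooled input (genome size 2.7 Gb, shift 50 bp). The deposited lists hold positions and names only. Reads on peaks were counted with featureCounts 2.0.5 and tested by the authors. Those counts were not used here, and the fold changes and adjusted p-values of the study's 4 tables were neither used nor printed. From these tables only position, gene name, class of annotation and direction were taken, in a text read from page images. Gene names were unread in 3 and 11 rows of the hyperacetylated and hypoacetylated SN tables and in 11 and 29 of the cortex tables. Rows matched the lists exactly by position, except 1 of the 5213 hypoacetylated cortex rows. The hyperacetylated cortex table gave 1 row fewer than the study states, and whether that row names a member is not known.

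The members and lists were chosen with earlier results of these data known. Genes named are the 4 members, genes of other rows in their windows, neighbours, and genes of a list of 40 pathway genes with an SN row; pathway genes named as having no SN row were added afterwards. Some genes of the list are counted but not reported here by name. Starts in the lists count from 0 and are printed from 1. An overlap was at least 1 bp. A width percentile is the percent of listed peaks that are narrower. Windows reached 50 kb beyond the rows of a gene. RefSeq tables of GRCr8 gave neighbours and promoter sequences by symbol, with 4 of 4 genes found, and none of their coordinates were used. Python 3.11.15, numpy 2.4.6 and matplotlib 3.10.9 were used, and the overlap and merging functions were tested on simulated data. The alternatives were other windows, overlaps, width limits, a merged list and a looser motif.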

Additional observations from a re-analysis of the deposited data

How the results depend on the processing

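No paired analysis was possible because the lists pool the rats of a region, and for the same reason no replicate could be left out and no depth or error could be computed from them. With a reciprocal overlap of 50%, the overlapped peaks went from 5 to 3 in the SN and from 8 to 5 in the motor cortex. Limiting the lists to peaks of at least 1000 bp moved the median width percentile of the cortex peaks from 53.0 to 29.9 and left 18 SN and 20 cortex peaks in the windows, against 40 and 37. Windows of 100 kb held 61 SN and 53 cortex peaks, windows of 25 kb held 30 and 26, and merging across gaps of 1 kb left 26 and 29. Within 25 kb, 22.4% of the summed SN windows and 19.6% of the cortex windows lay under peaks, against 14.6% and 13.5% within 50 kb. The looser kappa B core gave 10 matches in the 4 promoters, against 2 with the kappa B consensus. Each alternative changes the rule by which peaks, overlaps, window length or letters are counted, and the cause of these shifts was not tested. The median SN width percentile was 91.1 on the same chromosomes and 83.4 among peaks of at least 1000 bp, and that of the cortex peaks was 50.4 on the same chromosomes. No score is in the lists, so a stricter peak threshold could not be tried.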
